A study of Mus musculus with 6 samples.

Results

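Genes of cholesterol and fatty acid synthesis were measured in small intestinal adenomas with and without deletion of Paneth cells (PCs). The 31 genes were chosen by name for their place in these pathways, out of 48440 genes with a value. They comprised 18 enzymes of the sterol branch, 6 regulators and sterol transport genes, and 7 enzymes of the fatty acid branch. All 31 had a mean of at least 1 FPKM (fragments mapped per kilobase of a transcript and relative to library size) over the 6 libraries, a filter that 14240 genes passed.

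RNA-seq was performed on 3 adenoma libraries of ApcMin, PCdel mice (QC3, QC8 and QC10) and 3 of ApcMin, WT mice (QC4, QC5 and QC6, called ApcMin in the plots). ApcMin mice carry a mutant *Apc* allele and form adenomas in the intestine. All were on the C57BL/6 background and older than 42 days, and by the study's methods both genotypes carried the Rosa26 iDTA/WT allele, a diphtheria toxin A cassette that Cre switches on. PCdel mice in addition carried *Defa4-Cre*, an IRES-Cre cassette in the *Defa4* locus, which is active in the PC lineage, so the WT littermates hold the toxin cassette without Cre. The labels do not state that each library is a separate animal, and p-values therefore measure the spread between these libraries, which may be partly technical.

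PC transcripts were read first, as a check of the labels. *Lyz1*, which encodes lysozyme of PCs, was at 1672, 2229 and 2281 FPKM in QC4, QC5 and QC6 (WT) and at 950, 1148 and 1082 FPKM in QC3, QC8 and QC10 (PCdel). The summed level of 5 PC markers was 4399 to 8837 FPKM in WT and 2568 to 4090 FPKM in PCdel adenomas, so PC transcripts were reduced but not absent. The summed level of 6 epithelial markers (*Epcam*, *Cdh1*, *Krt8*, *Krt18*, *Krt20* and *Vil1*) lay between 4618 and 6309 FPKM in every library. The libraries held between 5.407 and 5.876 gigabases of aligned sequence, and their top 10 genes held 11.4% to 14.3% of the summed FPKM.

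Cells build cholesterol from acetyl-CoA through mevalonate, the isoprenoids and squalene, and they build fatty acids from the same precursor through malonyl-CoA. SREBP transcription factors drive both branches. They are held in the endoplasmic reticulum by the SCAP and INSIG proteins while sterols are plentiful and are cut and released when sterols run low, SREBP2 acting mainly on sterol genes and SREBP1c on fatty acid genes. The small intestine also absorbs dietary and biliary cholesterol, and its ileal end takes back bile acids, which are made from cholesterol in the liver.

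Because the genes of both branches are classed together as SREBP targets, the stretch of 150 bases before the RefSeq start of 5 of them is shown, in the direction of transcription (GRCm38.p6). *Hmgcs1* (chr13:119690201-119690350, plus strand) and *Hsd17b7* (chr1:169969206-169969355, minus strand) stand for the sterol branch, *Insig1* (chr5:28071262-28071411, plus strand) for the regulators, and *Fasn* (chr11:120824548-120824697, minus strand) and *Elovl6* (chr3:129532236-129532385, plus strand) for the fatty acid branch. Capitals mark TCACNCCAC (core of the sterol regulatory element), CCAAT (the letters bound by NF-Y), GGGCGG (a GC box) and CACGTG (an E-box), each on either strand.
Hmgcs1: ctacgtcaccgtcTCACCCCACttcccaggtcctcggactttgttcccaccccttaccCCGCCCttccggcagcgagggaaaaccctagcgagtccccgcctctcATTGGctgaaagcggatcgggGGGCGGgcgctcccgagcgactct
Hsd17b7: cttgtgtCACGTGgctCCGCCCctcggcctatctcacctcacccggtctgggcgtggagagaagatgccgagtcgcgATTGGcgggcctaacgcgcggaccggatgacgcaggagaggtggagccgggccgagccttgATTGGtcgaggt
Insig1: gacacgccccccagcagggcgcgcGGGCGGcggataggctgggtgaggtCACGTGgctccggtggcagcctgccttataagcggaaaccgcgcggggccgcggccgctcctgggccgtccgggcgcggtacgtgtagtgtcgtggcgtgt
Fasn: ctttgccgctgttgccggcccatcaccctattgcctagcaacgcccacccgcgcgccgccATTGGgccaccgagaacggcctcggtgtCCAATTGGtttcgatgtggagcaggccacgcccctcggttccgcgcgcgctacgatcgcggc
Elovl6: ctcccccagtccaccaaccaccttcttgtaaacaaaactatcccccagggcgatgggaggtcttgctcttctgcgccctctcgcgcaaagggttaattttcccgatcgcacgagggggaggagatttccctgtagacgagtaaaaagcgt

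*Hmgcs1* held TCACCCCAC at position -137 from the start, and both *Hsd17b7* and *Insig1* held CACGTG, at -143 and -101. The *Fasn* matches to CCAAT at -62 and -59 overlap each other on opposite strands, and the *Elovl6* stretch held none of the 4 motifs. The RefSeq table gave windows of 250 bases before to 50 after the start for 25 of the 31 genes, some with several starts. Among these, CCAAT was found in 21 genes (84.0%, against 41.1% of all 27025 genes with a window) and GGGCGG also in 21 (84.0%, against 38.2%). Counted by window, with 34 for these genes, the shares were 64.7% against 37.4% for CCAAT and 73.5% against 35.7% for GGGCGG. All genes with a window were compared, including those that did not pass the filter of 1 FPKM. By branch, CCAAT was present in 14 of 15 sterol, 4 of 5 regulator and 3 of 5 fatty acid genes, and GGGCGG in 14 of 15, 5 of 5 and 2 of 5. TCACNCCAC occurred in 1 gene (4.0%, against 1.44%), *Hmgcs1*, and CACGTG in 5 (20.0%, against 8.09%). These matches describe letters in the windows and are not binding sites measured here.

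Across the 31 genes, levels were on average higher in PCdel adenomas, but no gene passed the threshold after adjustment, and the difference came with wide spread inside the PCdel group. The log2 fold change of FPKM + 1, PCdel minus WT, was above 0 in 29 genes (93.5%, counting *Tm7sf2*, which rounds to 0.00), against 63.1% of all genes tested. The count was 27 under quantile normalization (49.7% of all genes) and under median centring (47.7%), 24 without WT library QC6 (49.3%) and 26 with array quality weights (53.0%). The median log2 fold change was 0.27, beside 0.04 for all genes tested. Fold changes ran from -0.22 (*Me1*) to 0.55 (*Mvd*).

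Every adjusted p was 1.0 (limma, Benjamini-Hochberg), so 0 of the 31 genes were called, while 2 of all genes tested were (0.014%). With an unadjusted p under 0.05, limma gave 1 of the 31 genes, *Hsd17b7*, in the higher direction, beside 3.38% of all genes (2.7% higher and 0.681% lower). The groups did not overlap in 2 genes, *Hsd17b7* and *Acly*, both higher in PCdel adenomas, beside 7.54% of all genes (6.0% higher and 1.54% lower). Both shares among the synthesis genes are close to those of all genes.

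**Figure D1:**
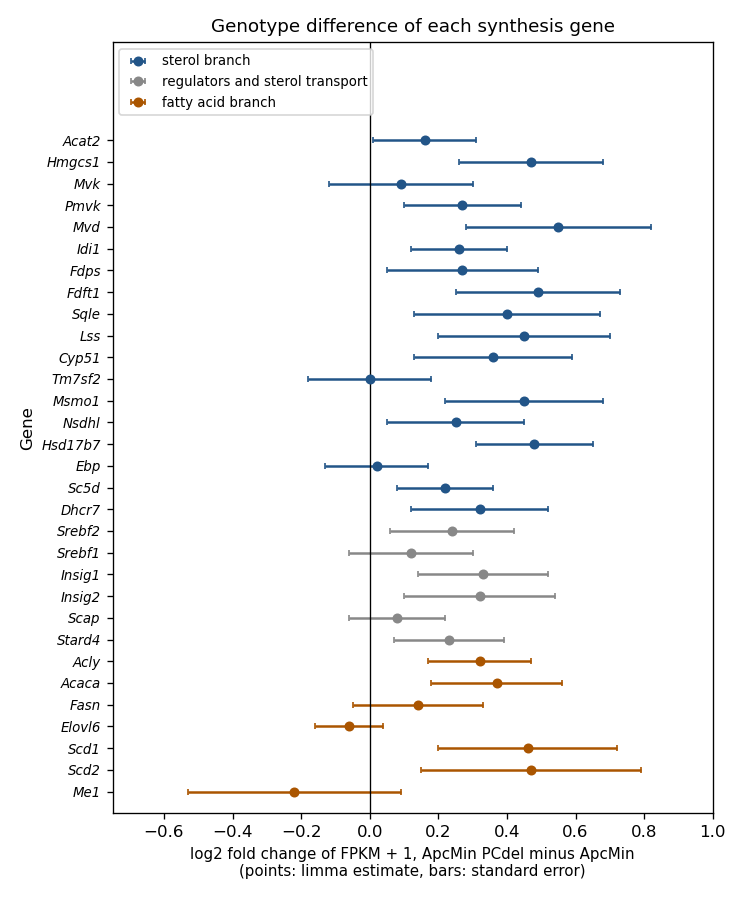
Log2 fold change of FPKM + 1 (horizontal axis, PCdel minus WT) for each of the 31 synthesis genes (vertical axis), with points for limma's estimates, bars for their standard errors, and colours for the 3 gene groups. Most points lie right of 0, from -0.22 for Me1 to 0.55 for Mvd, and the bars of Me1, Elovl6, Tm7sf2, Ebp, Mvk, Fasn, Scap and Srebf1 cross 0.

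The sterol branch opens with the enzymes that lead to mevalonate and on to the isoprenoids. *Hmgcs1* (chromosome 13, 119690462 to 119708086 in GRCm38), which encodes HMG-CoA synthase, was at 68.6, 66.9 and 53.6 FPKM in WT libraries QC4, QC5 and QC6 and at 65.1, 107 and 96.0 FPKM in PCdel libraries QC3, QC8 and QC10. QC8 and QC10 were above every other library and QC3 lay within the WT range. Its means were 63.1 ± 8.22 FPKM (SD, n = 3) in WT and 89.4 ± 21.8 FPKM (SD, n = 3) in PCdel adenomas, a log2 fold change of 0.47 (SE, the standard error, 0.21; limma unadjusted p = 0.0576, adjusted p = 1.0).

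*Mvd* (chromosome 8, 122433596 to 122443422), the decarboxylase that yields isopentenyl diphosphate, had the largest log2 fold change of the 31 genes, 0.55 (SE 0.27, limma adjusted p = 1.0). Without WT library QC6 it was 0.31, below the 0.44 of *Hsd17b7*. It was at 31, 27.5 and 17.6 FPKM in QC4, QC5 and QC6 and at 26.2, 41.9 and 44.2 FPKM in QC3, QC8 and QC10. Again QC8 and QC10 stood highest, QC6 lowest and QC3 between, so the groups overlapped. *Fdps*, which makes farnesyl diphosphate, was the most abundant gene of the sterol branch, at 92.2, 88.0 and 61.7 FPKM in the WT libraries and 74.0, 104 and 115 FPKM in the PCdel libraries. Its log2 fold change was 0.27 (SE 0.22, limma adjusted p = 1.0). The other genes of this stretch had log2 fold changes of 0.09 for *Mvk* (mevalonate kinase), 0.16 for *Acat2* (acetoacetyl-CoA thiolase), 0.26 for *Idi1* (isopentenyl diphosphate isomerase) and 0.27 for *Pmvk* (phosphomevalonate kinase). Over these 7 genes the median was 0.27.

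From squalene to cholesterol the median log2 fold change over 11 genes was 0.36. *Sqle* (chromosome 15, 59315077 to 59331192), the squalene epoxidase, was at 49.8, 52.1 and 32.0 FPKM in QC4, QC5 and QC6 and at 42.4, 59.3 and 76.9 FPKM in QC3, QC8 and QC10. QC3 was below 2 of the 3 WT libraries, and the log2 fold change was 0.40 (SE 0.27, limma adjusted p = 1.0). *Fdft1* (squalene synthase, 0.49), *Lss* (lanosterol synthase, 0.45), *Msmo1* (the sterol C4 methyl oxidase, 0.45) and *Cyp51* (lanosterol demethylase, 0.36) had log2 fold changes of like size, all with overlapping groups.

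*Hsd17b7* (chromosome 1, 169949535 to 169969241), a 3-ketosterol reductase in this pathway, was the least abundant gene of the branch by its mean of 8.18 FPKM. It was at 6.82, 6.77 and 6.23 FPKM in QC4, QC5 and QC6 and at 7.25, 11.7 and 10.3 FPKM in QC3, QC8 and QC10. Every PCdel library was above every WT library, QC3 by little. Its means were 6.61 ± 0.329 FPKM (SD, n = 3) and 9.74 ± 2.28 FPKM (SD, n = 3), a log2 fold change of 0.48 (SE 0.17, limma unadjusted p = 0.0275, adjusted p = 1.0). The exact two-sided permutation test over the libraries gave p = 0.1, the smallest value that 3 libraries against 3 allow.

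At the other end of the branch, *Tm7sf2*, a sterol C14 reductase, was at 31.6, 27.5 and 20.6 FPKM in the WT libraries and 23.8, 24.1 and 31.1 FPKM in the PCdel libraries. QC10 lay near the highest and QC3 and QC8 within the WT range, and the log2 fold change was 0.00 (SE 0.18). It was below 0 in 5 of 14 alternative settings, at -0.17 without QC6, -0.12 without QC10, -0.15 with array quality weights, -0.05 with median centring and -0.03 with quantile normalization. *Ebp*, the sterol isomerase, had a log2 fold change of 0.02 (SE 0.15), and the log2 fold changes of *Sc5d*, *Nsdhl* and *Dhcr7*, enzymes of the last steps, were 0.22, 0.25 and 0.32.

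**Figure D2:**
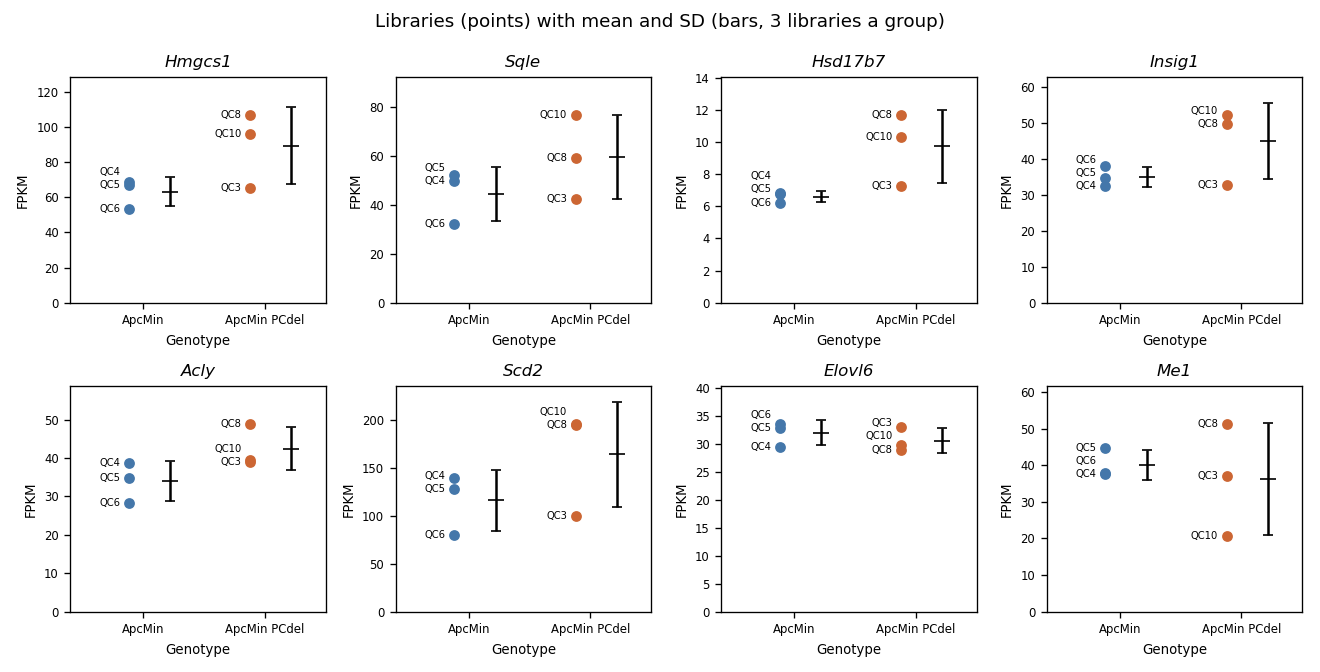
FPKM (vertical axes, from 0) of 8 synthesis genes in the WT libraries (blue, ApcMin) and PCdel libraries (orange), with the mean and SD of each group as a bar beside the points, and with library names set apart where points lie close. QC8 and QC10 are the highest libraries for Hmgcs1, Sqle, Hsd17b7, Insig1, Acly and Scd2, whereas Elovl6 stays between 29.0 and 33.6 FPKM and Me1 has both its highest value (51.3 FPKM, QC8) and its lowest (20.7 FPKM, QC10) in PCdel adenomas.

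Among the regulators, all 6 log2 fold changes were above 0, from 0.08 for *Scap* to 0.33 for *Insig1*. *Srebf2*, which encodes SREBP2, was at 51.2, 47.0 and 33.6 FPKM in QC4, QC5 and QC6 and at 47.6, 57.4 and 49.6 FPKM in QC3, QC8 and QC10, a log2 fold change of 0.24 (SE 0.18, limma adjusted p = 1.0). *Srebf1*, which encodes SREBP1, was at 30.6, 24.9 and 26.9 FPKM and at 23.0, 32.9 and 34.9 FPKM, a log2 fold change of 0.12 (SE 0.18, limma adjusted p = 1.0). For both, the groups overlapped, and for *Srebf1* QC3 was the lowest library of all. FPKM of *Srebf1* is summed over its transcripts here and does not separate SREBP1a from SREBP1c.

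*Insig1* (chromosome 5, 28071363 to 28078662), itself an SREBP target as well as a brake on SREBP release, was at 32.3, 34.5 and 37.9 FPKM in the WT libraries and at 32.8, 49.7 and 52.2 FPKM in the PCdel libraries QC3, QC8 and QC10. QC3 lay among the WT libraries, and the log2 fold change was 0.33 (SE 0.19, limma unadjusted p = 0.127, adjusted p = 1.0). *Insig2*, its paralog, followed another order, at 13.7, 14.1 and 16.5 FPKM in WT and 18.2, 13.8 and 25.6 FPKM in PCdel libraries. QC8, high for *Insig1*, was close to the lowest library for *Insig2*, whose log2 fold change was 0.32 (SE 0.22, limma adjusted p = 1.0).

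*Scap*, the escort of SREBP to the Golgi, was at 23.1, 21.6 and 17.5 FPKM in WT and 24.2, 21.9 and 19.8 FPKM in PCdel libraries. Its log2 fold change of 0.08 (SE 0.14) became -0.03 without WT library QC6. *Stard4*, a carrier of cholesterol between membranes, had a log2 fold change of 0.23 (SE 0.16).

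In the fatty acid branch 5 of 7 genes had log2 fold changes above 0, with a median of 0.32. *Acly* (chromosome 11, 100476353 to 100528000), which encodes ATP citrate lyase and supplies cytosolic acetyl-CoA to both branches, was at 38.6, 34.7 and 28.3 FPKM in QC4, QC5 and QC6 and at 38.9, 48.9 and 39.5 FPKM in QC3, QC8 and QC10. The groups did not overlap, though QC3 and QC4 were nearly level. The log2 fold change was 0.32 (SE 0.15, limma unadjusted p = 0.0765, adjusted p = 1.0), with an exact two-sided permutation p = 0.1.

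*Acaca*, whose acetyl-CoA carboxylase commits carbon to fatty acids, was the least abundant gene of the branch, at 7.97, 6.63 and 4.83 FPKM in WT and 7.15, 9.90 and 8.72 FPKM in PCdel libraries (log2 fold change 0.37, SE 0.19). *Fasn*, the fatty acid synthase, was at 21.8, 18.9 and 14.6 FPKM and at 20.4, 24.1 and 16.7 FPKM. QC10, the highest library for most sterol genes, was here below 2 WT libraries, and the log2 fold change of 0.14 (SE 0.19) became -0.01 without WT library QC6.

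The stearoyl-CoA desaturases put the double bond into oleate. *Scd2* was the most abundant of the 31 genes, at 139, 128 and 80.2 FPKM in QC4, QC5 and QC6 and at 100, 195 and 196 FPKM in QC3, QC8 and QC10. *Scd1*, its neighbour on chromosome 19, was at 12.7, 9.31 and 6.86 FPKM and at 9.60, 15.2 and 15.7 FPKM. Both genes had the same order of groups, QC8 and QC10 above all other libraries and QC6 lowest. Their log2 fold changes were 0.47 (SE 0.32) for *Scd2* and 0.46 (SE 0.26) for *Scd1*, both with a limma adjusted p of 1.0.

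*Elovl6* and *Me1* were the only genes of the 31 with log2 fold changes below 0. *Elovl6*, an elongase, named after its values were seen, varied least over the libraries, at 29.4, 32.9 and 33.6 FPKM in WT and 33.1, 29.0 and 29.8 FPKM in PCdel libraries (log2 fold change -0.06, SE 0.10). *Me1*, the cytosolic malic enzyme that supplies NADPH, was at 37.5, 44.7 and 37.8 FPKM in WT and at 37.0, 51.3 and 20.7 FPKM in PCdel libraries. Its log2 fold change of -0.22 (SE 0.31, limma adjusted p = 1.0) rested on QC10 and became 0.12 without that library.

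Set against each other, the sterol and fatty acid branches had median changes of like size. The median log2 fold change was 0.29 over 18 sterol genes, 0.32 over 7 fatty acid genes and 0.24 over the 6 regulators and transport genes. Without QC6 the sterol median was 0.18 and the fatty acid median 0.20, and without QC3 the sterol median was 0.44. The sterol median minus the fatty acid median was -0.03 and ranged from -0.10 to 0.07 over the alternative settings, with no test of the medians. Summed over the branch, sterol enzymes were at 734, 665 and 550 FPKM in QC4, QC5 and QC6 and at 639, 867 and 943 FPKM in QC3, QC8 and QC10. Fatty acid enzymes summed to 287, 275 and 206 FPKM and to 247, 373 and 327 FPKM. Both sums were highest in QC8 and QC10, lowest in QC6, and overlapped between genotypes because of QC3. *Scd2* alone held much of the fatty acid sum, with 195 FPKM in QC8 and 196 FPKM in QC10. QC10 was above the WT range in 4 of the 7 fatty acid genes, and *Fasn* and *Me1* were lower in QC10 than in QC4 or QC5.

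Within the PCdel group the highest library was not the same in both branches. Of the 18 sterol genes, 12 were highest in QC10 and 3 in QC8, whereas of the 7 fatty acid genes 2 were highest in QC10 and 4 in QC8. Of all 14240 genes tested, 2363 (16.6%) were highest in QC10 and 3060 in QC8. The mean deviation from the gene mean, in log2(FPKM + 1), was 0.23 in QC8 and 0.38 in QC10 for sterol genes, and 0.34 and 0.04 for fatty acid genes. This contrast involves single libraries and was not tested.

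**Figure D3:**
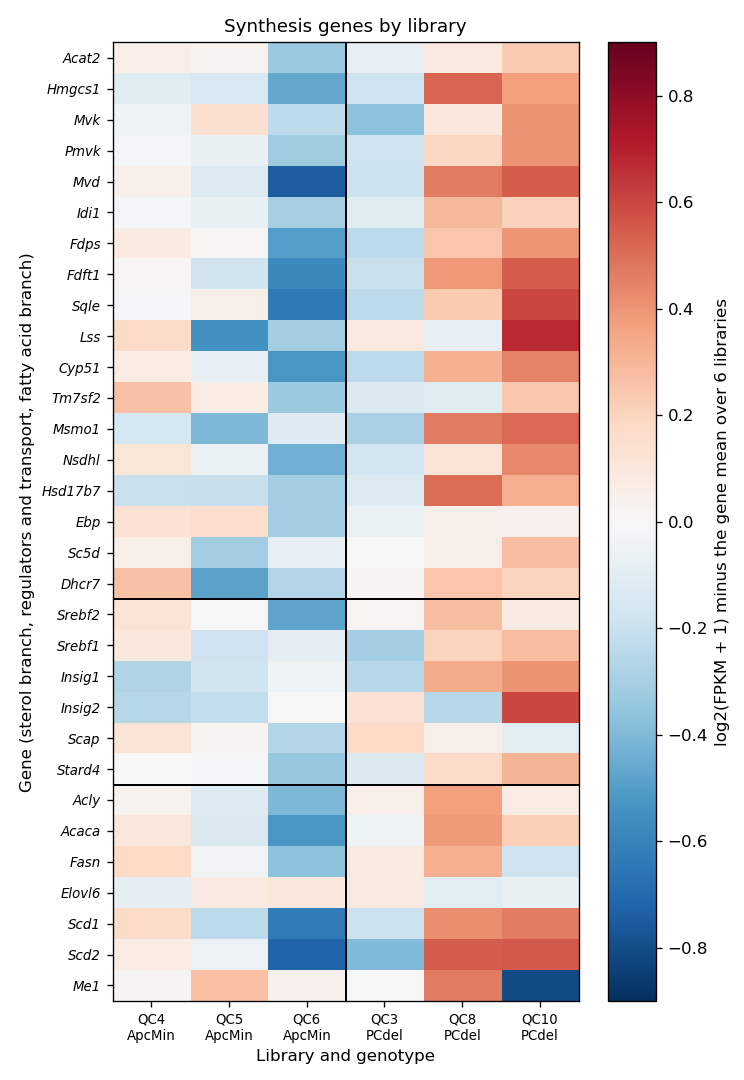
Deviation of log2(FPKM + 1) from each gene's mean over the 6 libraries (colour scale), with the 31 synthesis genes as rows, split into sterol branch, regulators and transport, and fatty acid branch, and the libraries as columns. The columns of QC8 and QC10 are mostly red (above the gene mean), that of QC6 mostly blue, and QC3 lies within the WT range in 24 of the 31 genes.

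The same libraries were high or low for many of the synthesis genes. QC8 and QC10 were both above the other 4 libraries in 19 of the 31 genes (61.3%), beside 7.69% of all genes tested. By group these were 12 of 18 sterol genes, 3 of 6 regulators and 4 of 7 fatty acid genes. The pattern was picked after the values were seen and is given as a description. The highest library was QC8 or QC10 in 26 genes, beside 38.1% of all genes, and the lowest was QC6 in 21, beside 46.1%. The lowest was QC10 in 1 gene, *Me1*, beside 13.0%.

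Set one by one against the range of the 3 WT libraries, QC8 was above it in 22 of the 31 genes (32.4% of all genes) and QC10 in 23 (25.2%). QC3 was within the range in 24 (60.0%), above it in 4 (27.3%) and below it in 3. The median range over the 6 libraries was 0.77 on the log2(FPKM + 1) scale for the synthesis genes, beside 0.46 for all genes tested.

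Single libraries moved many of the fold changes. When 1 library at a time was dropped, log2 fold changes ran from 0.09 to 0.46 for *Fdps*, from 0.18 to 0.62 for *Sqle*, from 0.07 to 0.36 for *Srebf2*, from 0.20 to 0.42 for *Acly*, from 0.20 to 0.51 for *Acaca*, from 0.26 to 0.67 for *Scd1* and from 0.23 to 0.79 for *Scd2*, and each was lowest without QC6. For *Srebf1* (0.01 to 0.30), *Insig1* (0.21 to 0.54) and *Insig2* (0.10 to 0.52) they were lowest without QC10.

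Leaving out a library also moved the count with an unadjusted p under 0.05. Without PCdel library QC3 it was 11 of 31 genes (3.32% of all genes), namely *Hmgcs1*, *Pmvk*, *Mvd*, *Idi1*, *Fdft1*, *Cyp51*, *Msmo1*, *Hsd17b7*, *Insig1*, *Scd1* and *Scd2*, and 0 of these had a limma adjusted p under 0.05, the lowest being 0.825. Without QC4 it was 5 (3.79%), without QC8 1 (2.49%), and 0 without QC5 (2.83%), QC6 (5.78%) or QC10 (4.29%). The values without QC3 stand for WT against QC8 and QC10 and are not a test of the genotypes, since QC3 was singled out after its values were seen.

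QC8 and QC10 also carried transcripts of the distal small intestine. *Fabp6*, the bile acid binding protein of the ileum, was at 8.22, 23.6 and 2.39 FPKM in QC4, QC5 and QC6 and at 6.18, 1477 and 630 FPKM in QC3, QC8 and QC10. *Slc10a2*, the ileal bile acid transporter, was at 5.14, 6.41 and 0.905 FPKM in WT and 1.99, 36.3 and 13.0 FPKM in PCdel libraries. Both were highest in the same libraries as the synthesis genes. *Cyp4f14*, the third distal marker read, did not share this order, and the sum of all 3 was 177 to 288 FPKM in WT libraries and 152, 1676 and 926 FPKM in QC3, QC8 and QC10. The summed level of the 3 proximal markers (*Gata4*, *Slc40a1* and *Cybrd1*) lay between 55.4 and 74.9 FPKM in the WT libraries and was 66.6 in QC3, 46.0 in QC8 and 30.2 in QC10. The part of these regional markers in the result was not tested.

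QC6, the lowest library for both branch sums, had the highest level of enterocyte transcripts. The summed level of 7 enterocyte markers (*Fabp1*, *Fabp2*, *Apoa1*, *Apoa4*, *Alpi*, *Sis* and *Mttp*) was 24894 FPKM in QC6. QC10, the highest library for the sterol sum, came second at 14851 FPKM. The other 4 libraries lay between 9114 and 10898 FPKM. Of the 7 markers, 6 were highest in QC6. Of all 14240 genes tested, 1773 were highest in QC6. In QC6 the sum of 5 proliferation markers was lowest, at 177 FPKM, against 204 to 230 FPKM elsewhere. The sum of the 6 epithelial markers was also lowest in QC6, at 4618 FPKM. Of the 6, 4 were lowest in QC6, where 46.1% of all genes were lowest. The other markers, *Krt20* (1092 FPKM) and *Vil1* (466 FPKM), were second highest there. Other lists followed the libraries in part. The sum of 5 crypt and stem markers was 126, 137 and 159 FPKM in QC4, QC5 and QC6 and 135, 167 and 217 FPKM in QC3, QC8 and QC10. It was highest in QC10 and QC8 and leaned on *Olfm4*, which ran from 51.7 FPKM in QC4 to 156 FPKM in QC10. QC8 and QC10 were both above the other 4 libraries in 0 of the 5 markers, and *Lgr5* was lowest in QC10, at 8.72 FPKM. The sum of 5 smooth muscle markers was 147 to 246 FPKM in WT and 253, 333 and 221 FPKM in PCdel libraries, with all 5 highest in QC8. Of all 14240 genes tested, 3060 were highest in QC8. The sum of 5 immune markers was 186 to 225 FPKM in WT and 169 to 177 FPKM in PCdel libraries, without overlap. It was mostly *Lyz2*, at 161, 198 and 189 FPKM in QC4, QC5 and QC6 and 144, 145 and 138 FPKM in QC3, QC8 and QC10. *Lyz2* was the 1 marker of the 5 without overlap, beside 7.54% of all genes. The other 4 markers had log2 fold changes above 0, with overlapping groups. In a bulk sample fewer cells of a type and less RNA per cell cannot be told apart, and the part of these markers in the result was not tested. Of 8 markers of fat tissue, which expresses fatty acid synthesis genes strongly, *Lep* and *Retn* were listed at 0 in all 6 libraries, *Adipoq* was at most 0.0973 and *Plin1* at most 0.0437 FPKM. *Plin4* was at most 0.422, *Car3* at most 0.667 and *Cfd* at most 1.01 FPKM. *Adipoq*, *Plin1*, *Car3* and *Cfd* were each highest in QC3. The sum of the 8 markers, 31.6 to 91.9 FPKM in WT and 40.4 to 57.1 FPKM in PCdel libraries, was nearly all *Cidec*, which was at 31.4 to 91.7 FPKM.

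**Figure D4:**
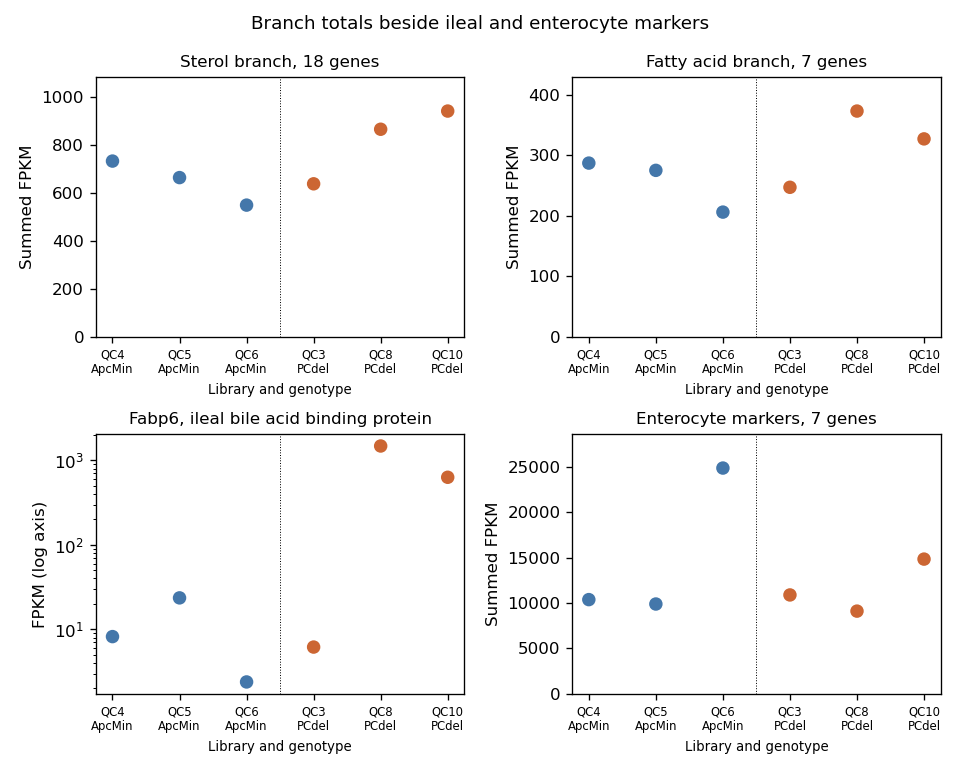
Summed FPKM of the 18 sterol and the 7 fatty acid genes (top), FPKM of Fabp6 on a log axis (bottom left) and summed FPKM of 7 enterocyte markers (bottom right), one point per library, WT in blue and PCdel in orange. QC8 and QC10 are highest for both branches and for Fabp6 (1477 and 630 FPKM), and QC6 is lowest for both branches and highest for the enterocyte markers (24894 FPKM). Scd2 alone holds 195 and 196 FPKM of the fatty acid sums in QC8 and QC10.

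Of the neighbouring pathways, 5 lists had median log2 fold changes between 0.03 and 0.14. Of 8 genes of the other isoprenoid branches (ubiquinone, dolichol and protein prenylation), 5 had log2 fold changes above 0 and 3 below, with a median of 0.10, from -0.12 (*Fnta*, a prenyl transferase subunit, and *Pdss2*, of ubiquinone synthesis) to 0.30 (*Dhdds*, of dolichol synthesis). Of 7 genes of sterol efflux and LXR, the nuclear receptor of oxysterols, 4 were above 0 and 3 below (median 0.06), from -0.24 for *Abcg5*, a subunit of the sterol exporter of the apical membrane, to 0.25 for *Abcg1*, an exporter to lipoproteins. Of 9 genes of sterol uptake, trafficking and esterification, 6 were above 0 and 3 below (median 0.03), with *Soat2* at -0.16 and *Soat1* at 0.21, both cholesterol esterifying enzymes. In these lists QC8 and QC10 were both above the other 4 libraries in 2 of 8, 2 of 7 and 0 of 9 genes.

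Of 5 tested genes of SREBP processing, 4 were above 0 and 1 below (median 0.03), the highest being 0.15 for *Mbtps1*, the first protease to cut SREBP. Of 13 tested genes of 16 listed for other steps of fatty acid synthesis and desaturation, 10 were above 0 and 3 below (median 0.14), from -0.27 for *Mlxipl*, which encodes the carbohydrate-responsive factor ChREBP, to 0.35 for *Hsd17b12*, of the elongation cycle. QC8 and QC10 were both highest in 1 of 5 (20.0%) and 2 of 13 (15.4%) of these genes, beside 7.69% of all genes. None of the 42 tested genes in the 5 lists had a limma unadjusted p under 0.05, beside 3.38% of all genes. The groups did not overlap in 2 of the 8 other isoprenoid genes and 1 of these 13, all higher in PCdel adenomas. Of the 7 efflux and LXR genes, 2 were higher and 1 lower without overlap. The uptake and SREBP processing lists held 0 such genes, beside 7.54% of all genes. A further list of 4 genes, not named here, had a median log2 fold change of 0.29, with 3 above 0 and 1 below, 3 with QC8 and QC10 above the other libraries, 1 with a limma unadjusted p under 0.05 and 0 after adjustment.

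Some values rest on reads that could be assigned to more than 1 gene. In GENCODE transcripts of GRCm38, the share of 31-mers found also in another gene was 43.7% for *Acat2* (mostly *Acat3*), 36.9% for *Me1*, 33.5% for *Acaca*, 31.9% for *Fdft1*, 27.9% for *Fdps* and 27.1% for *Idi1*, and at most 13.3% for the other 25 genes. *Fdft1* overlaps *Ctsb* on the opposite strand over 18.3% of its exonic bases, and *Ctsb* averaged 130.0 FPKM, so part of the reads could belong to either gene if strand was not used. *Scd1* and *Scd2* shared 8.18% and 6.81%, mostly with *Scd3* (mean 1.08 FPKM). *Hsd17b7* shared 0.313% and *Acly* 0%.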

How the data were processed

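Total RNA of adenomas was sequenced by the authors (TruSeq RNA kit, HiSeq2500) and analysed by them in CLC Genomics Workbench 7, with a normalization in MatLab whose settings are not given in the sources used here. The authors deposited for each library FPKM, TPM and mean coverage per gene. The quantifier, annotation and strand setting are not given in the sources used here, and gene positions matched GRCm38. Entries of 1 gene were summed. Coverage gave only the depth. Read counts were not used here, so counting intervals were not derived.

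Genes averaging 1 FPKM or more were compared as log2(FPKM + 1) by limma 3.58.1 in R 4.3.3 (lmFit, eBayes with trend) with Benjamini-Hochberg adjustment over 14240 genes at a threshold of 0.05. The pseudocount understates the change of weakly expressed genes. Single genes were also compared by exact two-sided permutation of the libraries. The fit was checked on data drawn with known answers. Genes given in every library were those with an unadjusted p under 0.05 or groups without overlap, the largest rise and fall and the highest and lowest mean of each group, and *Srebf1*, *Srebf2*, *Insig1*, *Insig2*, *Scap*, *Scd1*, *Scd2*, *Fasn*, *Sqle* and *Hmgcs1*. Alternatives were quantile normalization, a minimum of 5 FPKM or none, a pseudocount of 0.1, TPM, median centring, eBayes without trend, array quality weights and each library left out. The genes and lists were chosen with earlier results of these data known. Marker lists were read as sums without a test, and single values of 1 list of 4 genes are not reported here.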

Additional observations from a re-analysis of the deposited data

How the results depend on the processing

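No synthesis gene had a limma adjusted p under 0.05 under any of 14 alternatives, the lowest being 0.552, and the branch medians stayed within 0.16 to 0.44 (sterol) and 0.18 to 0.42 (fatty acid). With each library left out, the log2 fold change ran from -0.03 to 0.16 for *Scap* and from -0.01 to 0.27 for *Fasn*, below 0 without WT library QC6, and from -0.51 to 0.12 for *Me1*, above 0 without PCdel library QC10. The cause was not tested. The count of synthesis genes with an unadjusted p under 0.05 was 2 with TPM and 0 to 11 with each library left out. Among all genes tested, the adjusted count of 2 became 1 without a filter and 1 with median centring, and 1 to 5 with each library left out. The unadjusted count of 481 became 976 without a filter, 260 with a minimum of 5 FPKM and 1270 with array quality weights, and 353 to 824 with each library left out, highest without QC6. These calls split into 384 higher and 97 lower, against 261 and 182 with quantile normalization, 277 and 174 with median centring, 520 and 71 with TPM, 806 and 464 with array quality weights, and 489 and 335 without QC6. Counts of genes above 0 (24 to 29 of 31) and of genes with QC8 and QC10 highest (19 to 21) were added after the data were seen. Where a library left out leaves 2 in a group, limma pools the spread of both groups, as it does in the main fit. No paired analysis was possible because no number or label links a library of 1 genotype to one of the other. With 3 libraries a group and no read counts, small differences cannot be resolved.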
